A study of Rattus norvegicus with 4 samples.

Results

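Fibroblasts of the rat esophagus that carried more transcripts of Cilp, Thbs4, Aspn and Fibin than of Postn, Dkk2, Pi16 and Ccn5 were described in an unirradiated library and in a library taken after fractionated irradiation. They numbered 3535 of the 21898 barcodes kept in these libraries, 2576 in the control and 959 at day 14, out of 45348 barcodes in the whole series of 4 libraries. A barcode was kept with at least 500 unique molecular identifiers (UMIs, each standing for 1 captured transcript) and at most 20% mitochondrial UMIs. It entered the fibroblast gate with at least 100 UMIs of Col1a1, Col3a1, Dcn and Lum together per 10000, no UMI of Ptprc and fewer than 2 UMIs of Myh11 and Rgs5 together. The rule also asked for no UMI of Pecam1, but no feature matched that symbol, so that step was not applied here. The last step compared the summed UMIs of the 4 positive and the 4 opposing genes, and the cells on the other side of it are called the Postn Dkk2 side.

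The control, labelled 0Gy_7d, was a pool of esophagi from 5 male Sprague-Dawley rats aged 6 weeks that had received 5 fractions of 0 Gy and were taken at day 7. The other library, labelled 5x7Gy_14d, came from 5 such rats given X-rays to the esophageal region at 7 Gy a day for 5 days, at 1.7 Gy per min, and taken at day 14. Tissue was shipped in cold storage solution, digested with collagenase, DNase and trypsin and depleted of dead cells, per the labels, and read with droplet 3' sequencing. Dose and day of collection differed together, so their parts cannot be told apart, and with 1 pool per group no difference has a replicate check and no test was made. Ranges given in parentheses are 95% intervals and cover counting error only, not the spread between animals.

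Fibroblasts build and turn over the collagen-rich matrix of the esophageal wall and signal to the epithelium and muscle beside them. Cilp and Thbs4 encode secreted matrix glycoproteins known from cartilage, tendon and muscle connective tissue, Aspn a small leucine-rich proteoglycan, and Dpt a protein that assists collagen fibril assembly. Ionizing radiation breaks DNA, and p53, a transcription factor stabilized by such damage, switches on genes for cell cycle arrest, repair and cell death.

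The control library held 12505 barcodes and 97207745 UMIs, and the day 14 library 10468 barcodes and 80574775 UMIs. Members had median depths of 7126 UMIs in the control and 8191 at day 14, and median mitochondrial shares of 5.05% and 2.80%. The Postn Dkk2 side was deeper at day 14, with medians of 7303 and 11414 UMIs. The libraries shared 38 barcode sequences. Scrublet called 131 control members (5.09%) and 43 day 14 members (4.48%) doublets, and these were retained because the rule has no such step. The other libraries of the series, from day 7 after 1 dose of 35 Gy or 5 doses of 7 Gy, had 245 and 33 barcodes that met the rule and are not described further.

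These fibroblasts made up a smaller share of the cells at day 14. They were 21.8% (21.1 to 22.6) of kept barcodes in the control and 9.51% (8.95 to 10.1) at day 14, a share 2.29-fold (2.13 to 2.47) lower. Within the fibroblast gate they were 58.6% (57.1 to 60.0) and 28.7% (27.1 to 30.2), 2.04-fold (1.90 to 2.20) lower. The gate as a whole held 37.2% of kept barcodes in the control and 33.2% at day 14, and the Postn Dkk2 side 13.2% and 22.4%. Thus the control library had more cells on the Cilp Thbs4 side than on the Postn Dkk2 side, and the day 14 library fewer.

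**Figure D1:**
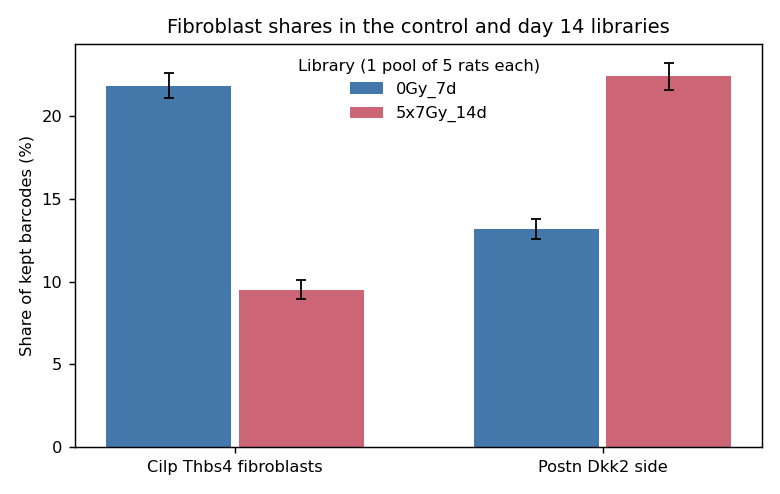
Share of kept barcodes (%) on each side of the fibroblast gate in the control (0Gy_7d) and day 14 (5x7Gy_14d) libraries; bars are 1 pooled library each and error bars are exact 95% counting intervals. Cilp Thbs4 fibroblasts were 21.8% and 9.51%, and the Postn Dkk2 side 13.2% and 22.4%.

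The size of this difference depended on the genes of the last step. Ccn5, a matricellular gene of the opposing set, was at 36.4 CPM (a gene's UMIs summed over the cells, scaled so that every population has the same total) in control and 826 CPM in day 14 cells of the Postn Dkk2 side, and at 10.3 and 153 CPM in members. With Ccn5 left out, members numbered 2585 and 1058 and were 2.08-fold lower of kept barcodes and 1.86-fold lower within the gate. Leaving out Aspn gave 1827 and 745 members and shares 2.09-fold and 1.87-fold lower. In both of these settings, chosen after seeing the data, the share stayed lower at day 14.

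Most members lay well inside the last limit. The median margin was 12 UMIs in the control and 10.0 at day 14, from medians of 19 and 18 positive against 4 and 6 opposing UMIs. Members that passed by 1 UMI numbered 229 (8.89%) and 69 (7.19%), cells that missed by 1 UMI 131 and 102, and ties 264 and 127. On the collagen limit, 86 and 32 members lay between 100 and 120 per 10000, and 64 and 31 kept barcodes lay just outside, between 80 and 100.

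The markers that name the population were present in both libraries, in different proportions. All 4 positive genes were detected in 48.0% of control members and 45.5% of day 14 members. Since the rule used them, their levels are a description. Thbs4 was at 839 CPM in control and 1146 CPM in day 14 members, a log2 ratio of 0.45 (0.41 to 0.49). Aspn was at 1349 and 666 CPM, a log2 ratio of -1.02 (-1.06 to -0.98). Cilp, at 729 and 572 CPM, and Fibin, at 485 and 419 CPM, differed less, with log2 ratios of -0.35 and -0.21. Thbs4 was thus the marker with a higher level at day 14, and Aspn the marker with the lowest ratio. Dpt, which the rule did not use, was at 4264 and 2424 CPM, a log2 ratio of -0.81 (-0.84 to -0.79). The general fibroblast receptor Pdgfra was at 127 and 95.8 CPM in members.

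Counting for each cell the marker with the most UMIs gave the same order. This count used the same UMIs as the levels above and the rule, so it is a description and no separate support. Aspn led in 54.5% (52.6 to 56.5) of control members and 26.1% (23.3 to 29.0) at day 14. Thbs4 led in 17.3% (15.9 to 18.8) and 40.7% (37.5 to 43.9). Cilp led in 14.4% and 14.6% of members, and Fibin in 5.12% and 9.38%. The remainder, 8.58% and 9.28%, had ties. The commonest leading marker was therefore Aspn in the control and Thbs4 at day 14, while the Cilp-led share was within counting error of the same value.

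**Figure D2:**
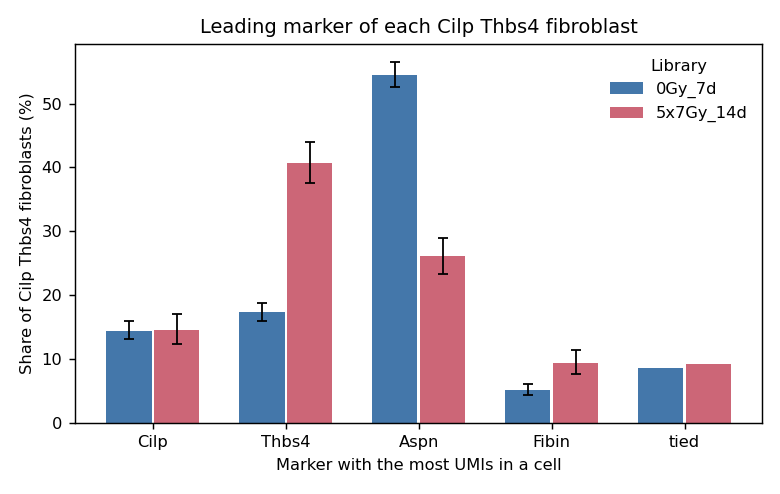
Share of Cilp Thbs4 fibroblasts (%) by the marker with the most UMIs in the cell, for the control (0Gy_7d) and day 14 (5x7Gy_14d) libraries; error bars, where drawn, are exact 95% counting intervals. Aspn led in 54.5% and 26.1% of cells and Thbs4 in 17.3% and 40.7%.

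Some other genes differed between cells led by different markers in both libraries. The genes in this paragraph were chosen after their values were seen, as those with the largest differences in both. That they agree between the libraries therefore follows from the choice. Cilp-led cells carried more Cxcl14, a chemokine, with 109 CPM against 5.31 CPM in Aspn-led cells of the control and 122 against 4.25 CPM at day 14. They also carried more Eln, which encodes elastin, at 1737 against 703 CPM and 1447 against 597 CPM. Ptch1, the Hedgehog receptor and a target of that pathway, was at 49.3 against 13.4 CPM in the control and 47.4 against 9.45 CPM at day 14. Aspn-led cells carried more of 3 other genes. Ptn, the growth factor pleiotrophin, was at 2838 against 1220 CPM and 1917 against 790 CPM. Dpp4, a cell surface peptidase, was at 59.0 against 19.4 CPM and 132 against 33.9 CPM. Aldh1a2, which makes retinoic acid, was at 189 against 80.9 CPM and 209 against 106 CPM.

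Against the Postn Dkk2 side, members were marked in both libraries by genes outside the rule, again chosen after seeing values. Spp1, encoding osteopontin, was at 58.4 against 4.91 CPM in the control and 58.2 against 5.63 CPM at day 14. Smoc2, a matrix calcium-binding protein, was at 350 against 53.8 CPM and 230 against 38.2 CPM. Bmper and Nog, secreted modulators of bone morphogenetic proteins, were higher in members, with Bmper at 87.9 against 13.4 CPM and 74.2 against 7.87 CPM. On the other side, Wnt2 was at 0.280 CPM in control members against 11.3 CPM, and at 1.31 against 22.9 CPM at day 14. Ptges, a prostaglandin E synthase, was at 9.59 against 150 CPM and 21.9 against 130 CPM. These genes were picked for differing in the same direction in both libraries. Their agreement between control and day 14 cells therefore follows from the choice and is a description only.

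UMIs summed over members gave 10489 genes with at least 50 UMIs in the libraries together. Of these, 584 (5.57%) were at least 2-fold higher at day 14 and 277 (2.64%) at least 2-fold lower, and the median log2 ratio of all of them was 0.08. These shares are the background against which the gene lists below are read, and a ratio of at least 2 is a limit of size, not of significance. A gene was held to pass the free RNA rule when its CPM in members, in the library where it was higher, was at least 0.5 times its highest CPM among epithelial, endothelial, immune and mural barcodes, since free RNA in droplets adds transcripts of other cells.

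Genes of the p53 pathway were among the clearest differences. Of 36 listed target genes 33 matched a feature and 26 were measured, and 10 of the 26 were at least 2-fold higher and 1 lower, with a median log2 ratio of 0.44. Cdkn1a, which encodes the cell cycle inhibitor p21, was at 126 CPM in control and 772 CPM in day 14 members, a log2 ratio of 2.62 (2.55 to 2.69). Aen, a nuclease induced in apoptosis, was at 6.84 and 67.6 CPM, a log2 ratio of 3.31 (3.02 to 3.60). Mdm2, the ligase that degrades p53, was at 114 and 365 CPM, a log2 ratio of 1.67 (1.59 to 1.75). These cover arrest, cell death and feedback on p53 itself. Ccng1, encoding cyclin G1, was at 50.4 and 157 CPM, a log2 ratio of 1.64 (1.51 to 1.76). Phlda3, an inhibitor of Akt signalling, was at 227 and 571 CPM, with 1.33 (1.27 to 1.39). Eda2r, a receptor of the tumour necrosis factor family, was at 0.729 and 6.33 CPM, with 3.12 (2.22 to 4.12). All 6 passed the free RNA rule, as did Tp53inp1 and Sesn2, whereas Gdf15 (log2 ratio 3.79) and Plk2 (1.69) did not. Bax, the pro-apoptotic effector, was at 118 and 185 CPM, and Fas, a death receptor, at 20.4 and 27.4 CPM, below the 2-fold limit. The gene at least 2-fold lower was Perp, a desmosome gene of epithelia, which failed the free RNA rule.

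The promoters of 3 of these genes held a match to the p53 response element and are shown for the genes that were higher together. They are the 250 bases before the start of the RefSeq gene on build GRCr8, 5' to 3' on the gene's strand, with the 20-base match in capitals. Cdkn1a lies on the plus strand at chr20:7150682-7150931, Ccng1 on the minus strand at chr10:25684877-25685126, and Aen on the plus strand at chr1:142224283-142224532.
Cdkn1a: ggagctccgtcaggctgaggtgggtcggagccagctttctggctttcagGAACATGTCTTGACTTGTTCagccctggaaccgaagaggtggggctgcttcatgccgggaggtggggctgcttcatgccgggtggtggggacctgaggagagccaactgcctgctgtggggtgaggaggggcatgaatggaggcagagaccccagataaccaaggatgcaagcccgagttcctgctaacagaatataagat
Ccng1: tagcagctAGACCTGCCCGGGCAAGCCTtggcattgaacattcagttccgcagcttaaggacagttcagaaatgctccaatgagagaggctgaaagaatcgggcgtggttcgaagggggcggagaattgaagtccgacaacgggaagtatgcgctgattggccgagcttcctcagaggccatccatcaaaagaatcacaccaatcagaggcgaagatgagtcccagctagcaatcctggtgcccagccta
Aen: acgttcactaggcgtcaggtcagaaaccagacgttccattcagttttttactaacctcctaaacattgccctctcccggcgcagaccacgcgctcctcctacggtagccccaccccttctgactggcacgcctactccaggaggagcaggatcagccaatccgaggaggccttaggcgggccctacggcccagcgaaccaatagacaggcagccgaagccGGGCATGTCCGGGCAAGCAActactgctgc

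The element searched was the consensus p53 response element, 2 adjoining decamers with no spacer, which reads alike on both strands, with at most 2 of 20 bases mismatched. That limit was chosen after the sequences were seen. Searching 250 bases before to 50 after the start, the match had 1 mismatch in Cdkn1a and Ccng1 and 2 in Aen, from -201 to -182, -242 to -223 and -30 to -11 relative to the start. Of 23 measured list genes with a promoter in the table, 3 held a match, and these were among the 9 that were at least 2-fold higher. Over all 33469 promoters of the table, 292 (0.872%) held one. A match describes the letters only.

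The p53 difference was spread over the members. After each cell was thinned to 1500 UMIs, which left out 298 control and 30 day 14 members, 13.3% (12 to 14.8) of control and 50.2% (46.9 to 53.4) of day 14 members had a Cdkn1a UMI. The unthinned shares were 37.0% and 78.9%. In epithelial barcodes, a deeper class with medians of 15265 and 13695 UMIs, the thinned shares were 28.7% and 21.0%, so those of the day 14 members exceeded them and those of the control did not. Aen was detected in 0.922% of thinned control and 9.80% of thinned day 14 members, beside 2.89% and 3.32% of epithelial barcodes. Epithelial barcodes were not the class with the most Aen. Among the classes of the free RNA rule its highest CPM was in endothelial barcodes, and this was above the CPM of day 14 members. Among cells grouped by leading marker, Cdkn1a was at 168 and 721 CPM in Cilp-led, 114 and 843 CPM in Thbs4-led, 120 and 681 CPM in Aspn-led and 172 and 825 CPM in Fibin-led cells. It was higher at day 14 in all 4 groups.

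The same genes were higher on the Postn Dkk2 side, which had a list median of 0.54. Its Cdkn1a log2 ratio was 2.95, larger than that of members by 0.33 (0.23 to 0.43 as the counting interval), and its Mdm2 log2 ratio 2.19. Plk2 was the reverse, at 1.69 in members and 1.19 on the Postn Dkk2 side. The p53 difference was therefore not particular to the Cilp Thbs4 side in these libraries.

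**Figure D3:**
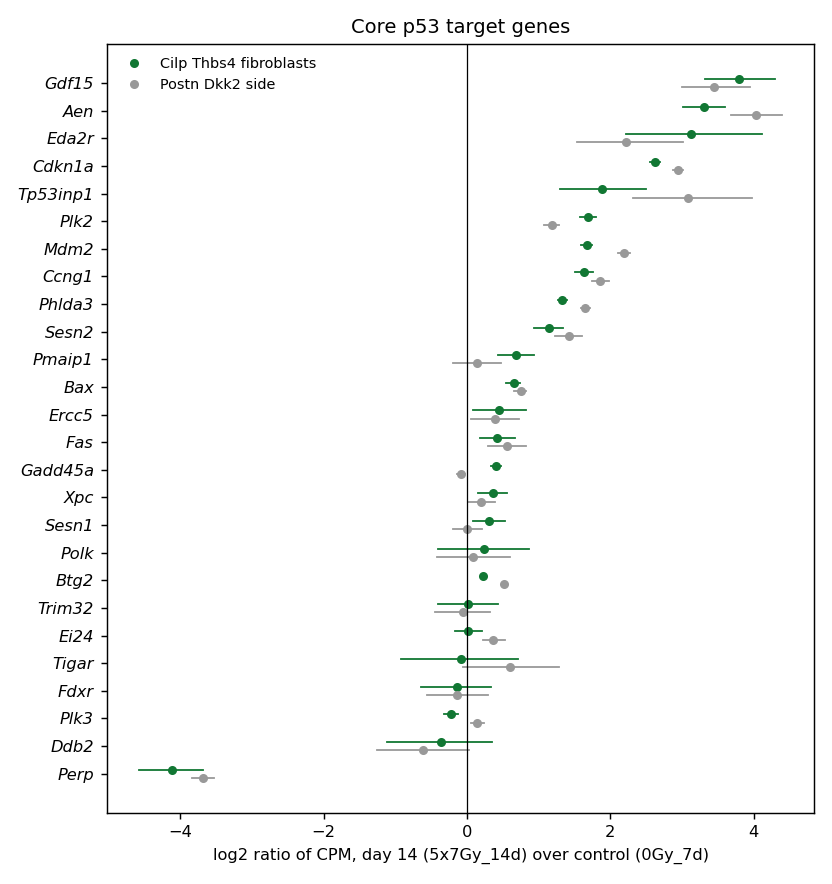
log2 ratio of CPM, day 14 over control, for each measured core p53 target gene in Cilp Thbs4 fibroblasts and on the Postn Dkk2 side; points are ratios of summed UMIs and lines 95% counting intervals. Cdkn1a was at 2.62 and 2.95 and Mdm2 at 1.67 and 2.19, while Perp was lower in both.

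Few members had a UMI of a proliferation gene. Of thinned members, 2.15% (1.60 to 2.83, 49 of 2278) in the control and 0.969% (0.444 to 1.83, 9 of 929) at day 14 had a UMI of Mki67 or Top2a, and the unthinned shares were 5.47% and 3.13%. Mural barcodes were taken outside the fibroblast gate with at least 5 UMIs of the mural genes Myh11 and Rgs5. Their thinned shares were 5.46% of 806 and 2.46% of 1259, and no member share exceeded them. Whether the mural barcodes themselves cycled was not tested, so this comparison cannot decide whether members did. Single members held up to 45 Mki67 and 36 Top2a UMIs in the control, and up to 23 and 35 at day 14. Of 35 measured G2/M genes 0 were at least 2-fold higher and 8 lower, with a median log2 ratio of -0.55, which was 0.26 with the collagen gate at 200 per 10000 UMIs. Only 1 of the 35 passed the free RNA rule. Some G2/M genes, picked after seeing values, were higher in Thbs4-led than in Aspn-led cells of both libraries. Cdk1 was at 35.6 against 7.49 CPM in the control and 18.4 against 2.84 CPM at day 14. Its log2 ratio was -0.95 in Thbs4-led, -1.40 in Aspn-led, -1.32 in Fibin-led and 0.66 in Cilp-led cells. Thbs4-led cells were a larger share of members at day 14, and the part of this in the list median was not tested. The 21 measured S phase genes had none past the limit in either direction and a median of -0.05.

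Matrix genes differed gene by gene rather than together. Of 15 measured fibrillar and microfibrillar collagens, 1 was at least 2-fold higher and none lower, with a median log2 ratio of 0.38. Col3a1, a gene of the rule, was at 12373 CPM in control and 7274 CPM in day 14 members, a log2 ratio of -0.77. Col1a1, also of the rule, was at 2924 and 2802 CPM. Its log2 ratio was 0.40 in Thbs4-led, -0.13 in Fibin-led, -0.44 in Aspn-led and -0.88 in Cilp-led cells. Col6a1, encoding a chain of the pericellular collagen VI, was at 204 and 406 CPM, a log2 ratio of 0.99 (0.92 to 1.06), just under the limit. Col6a5, of the same family, passed it at 2.36 and 14.1 CPM, with 2.58 (2.06 to 3.13). Col6a2, a further chain of collagen VI, was at 1144 and 1048 CPM, with -0.13 (-0.16 to -0.09), so the family did not differ in 1 direction. Col15a1, encoding a basement membrane zone collagen, was at 688 and 412 CPM, a log2 ratio of -0.74. Sparc, a collagen-binding matricellular protein, was at 8120 and 4652 CPM, with -0.80. None of 15 measured genes for collagen processing and secretion passed the limit, and 13 of them had a log2 ratio below 0.

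Among 20 measured elastic fibre and microfibril genes, 1 was at least 2-fold higher and 1 lower, with a median of -0.09. Fbln1, encoding fibulin-1 of elastic fibres and basement membranes, was at 124 and 476 CPM, a log2 ratio of 1.94 (1.87 to 2.02). Its thinned share of members with a UMI was 15.1% and 46.3%, beside 0.510% and 0.512% of epithelial barcodes. Mfap4, a microfibril-associated glycoprotein, was at 138 and 67.1 CPM, a log2 ratio of -1.04 (-1.17 to -0.91). Eln was at 874 and 791 CPM, a log2 ratio of -0.14. Fbln1 and Mfap4 thus differed in opposite directions, while Eln was nearly level only over all members together. By leading marker the Eln log2 ratio was 0.37 in Thbs4-led, -0.24 in Aspn-led, -0.26 in Cilp-led and -1.73 in Fibin-led cells.

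Of 17 measured matricellular genes, which encode matrix proteins that signal rather than bear load, 5 were at least 2-fold higher and none lower, with a median of 0.00. Besides Ccn5, which the rule used, these were Thbs2 at 41.3 and 119 CPM (log2 ratio 1.53), Ccn2 at 109 and 307 CPM (1.49), Spon1 at 3.48 and 9.08 CPM (1.39) and Thbs1 at 95.9 and 227 CPM (1.24). Ccn2 encodes connective tissue growth factor, and Thbs1 an activator of latent TGF-beta. All passed the free RNA rule. The ratio of Spon1 rested on few cells, with 32 day 14 members holding a UMI, 1 of them 21.1% of the UMIs, and its ratio was -1.64 in Aspn-led and 0.17 in Thbs4-led cells. Of 6 measured small leucine-rich proteoglycans the rule gene Aspn alone passed the limit, and Bgn, encoding biglycan, was at 1123 and 884 CPM. Clec3b, encoding tetranectin, was the gene past the limit among 10 measured tendon and cartilage matrix genes, at 293 and 647 CPM, a log2 ratio of 1.14 (1.09 to 1.20). Mmp2, a gelatinase, was at 563 and 989 CPM, a log2 ratio of 0.81, among 22 measured proteases and inhibitors of which 2 were at least 2-fold higher, Timp4 and Adamts9, and neither passed the free RNA rule.

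Several matrix genes set the members apart from the Postn Dkk2 side in how the libraries differed. Eln had a log2 ratio of -0.14 in members and 1.87 on the Postn Dkk2 side, where it was at 288 and 1054 CPM, a difference of -2.02 (-2.08 to -1.95) for members minus the other side. Tnc, encoding tenascin-C of repairing tissue, had 0.53 and 2.47, a difference of -1.94 (-2.18 to -1.69). Col8a1 had 0.84 and 3.11, and Ltbp2, a latent TGF-beta binding protein, -0.22 and 1.95. Cthrc1, a gene of activated fibroblasts, was at 67.3 and 102 CPM in members and 46.7 and 244 CPM on the other side. Within the members, Cthrc1 had a log2 ratio of 0.79 in Thbs4-led, -0.86 in Cilp-led and -0.63 in Fibin-led cells. Tnc likewise had 0.83 in Thbs4-led, 0.01 in Aspn-led and -1.15 in Cilp-led cells, and Thbs4-led cells were a larger share of members at day 14, as given above. The part of that share in both member ratios, and in that of Eln, was not tested. In each of these 5 genes the control level was higher in members than on the Postn Dkk2 side. At day 14 the levels lay closer together for Tnc, at 91.5 CPM in members and 95 CPM on the other side, and for Col8a1, at 229 and 225 CPM. Fbln1 and Col6a5 had the larger ratio in members, by 0.73 (0.64 to 0.82) and 1.22 (0.62 to 1.81). Since the last step split the cells by genes that themselves differed between the libraries, cells may lie on different sides of it in the 2 libraries, and the part of this in the values was not tested.

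**Figure D4:**
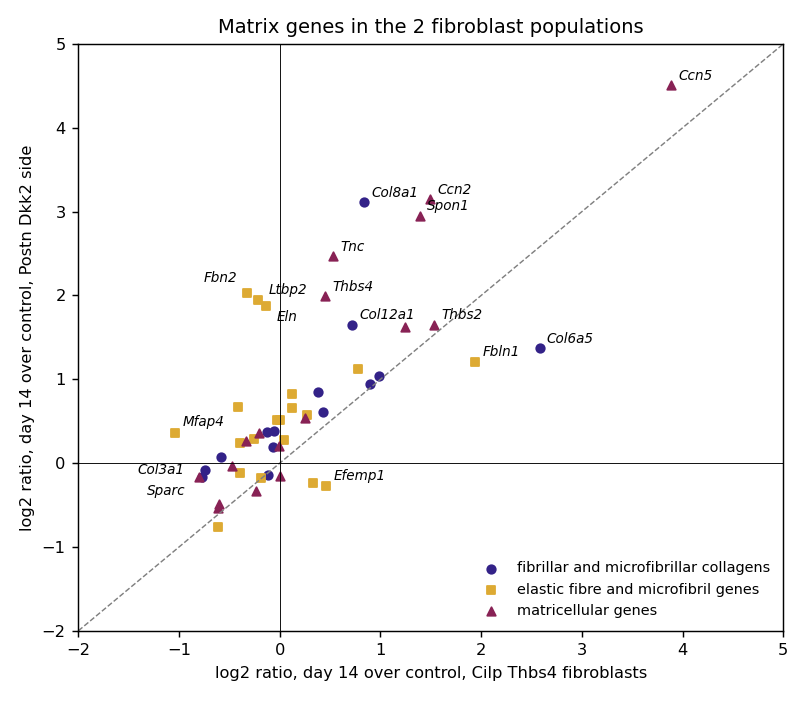
log2 ratio of CPM, day 14 over control, for collagen, elastic fibre and matricellular genes in Cilp Thbs4 fibroblasts (horizontal) and on the Postn Dkk2 side (vertical), with the dashed line marking equal ratios; Thbs4 and Ccn5 were used by the rule. Eln, at -0.14 and 1.87, and Tnc, at 0.53 and 2.47, lie above the line, and Fbln1, at 1.94 and 1.21, below it.

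Signalling genes outside the matrix differed in several families. Of 34 measured TGF-beta ligands, receptors and targets, 6 were at least 2-fold higher and none lower. Grem1, a secreted antagonist of bone morphogenetic proteins, was at 8.97 CPM in control and 107 CPM in day 14 members, a log2 ratio of 3.57 (3.33 to 3.82). Its thinned share was 0.878% and 6.46% of members, and 0% of epithelial barcodes in both libraries (up to 0.157% and 0.939%). It was also higher on the Postn Dkk2 side, at 5.16 and 220 CPM, a log2 ratio of 5.41. Smad7, an inhibitor of TGF-beta signalling, was at 31.3 and 64.6 CPM, a log2 ratio of 1.04. Of 15 myofibroblast genes 1 was at least 2-fold higher, S100a4, which failed the free RNA rule, and Acta2, encoding smooth muscle actin, was at 17.7 and 19 CPM.

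Among 17 measured Wnt pathway genes 4 were at least 2-fold higher and none lower, including Dkk2 of the rule. Sfrp1, a secreted Wnt inhibitor, was at 525 and 1079 CPM, a log2 ratio of 1.04 (1.00 to 1.08). Rspo1, which encodes an R-spondin that raises Wnt signalling, was at 39.9 and 87.9 CPM, with 1.14 (0.99 to 1.29). Of 29 growth factors for neighbouring cells, 3 were at least 2-fold higher and 3 lower, and those lower failed the free RNA rule. The higher ones were Pdgfc, at 0.729 and 6.21 CPM, Fgf2, at 5.33 and 16.4 CPM, and Fgf7, the keratinocyte growth factor that acts on epithelium, at 5.55 and 16.2 CPM with a log2 ratio of 1.55 (1.17 to 1.94). Ptn was at 2382 and 1408 CPM, a log2 ratio of -0.76. The insulin-like growth factor gene Igf1 was at 593 and 624 CPM. Among 22 surface receptors 6 were at least 2-fold higher, with Dpp4 at 48.7 and 105 CPM (log2 ratio 1.11) and Cd34, a stromal progenitor antigen, at 44.4 and 99.5 CPM (1.17).

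Complement and inflammatory genes were measured next. Of 15 complement genes 4 were at least 2-fold higher, with a median of 0.73, and 13 had ratios above 0. C7, a part of the membrane attack complex, was at 57.0 and 167 CPM, a log2 ratio of 1.55 (1.43 to 1.67), and its thinned share of members was 8.03% and 23.8% beside 0.170% and 0% (up to 0.939%) of epithelial barcodes. C4b, a component of the classical pathway, was at 0.393 and 9.32 CPM, a log2 ratio of 4.57 (3.46 to 5.93). C1s, a protease that starts that pathway, was at 444 and 851 CPM, with 0.94. Complement genes of the members were thus mostly higher at day 14, and the Postn Dkk2 side had a median of 0.86. Of 26 inflammatory mediators 8 were at least 2-fold higher and 4 lower. The eosinophil chemokine Ccl11 was at 2.13 and 15.5 CPM, and the B cell chemokine Cxcl13 at 86.8 and 253 CPM, a log2 ratio of 1.54 (1.45 to 1.64). Cxcl9, an interferon-induced chemokine, was at 32.0 and 13.9 CPM, with -1.21 (-1.51 to -0.92). Of 28 interferon-stimulated genes 9 were at least 2-fold higher, with Isg20 at 3.81 and 20.6 CPM the single 1 of these to pass the free RNA rule.

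Other cell types' markers also differed in the members. The 15 matched epithelial markers summed to 1199 CPM in control and 143 CPM in day 14 members, and all 15 were at least 2-fold lower. The 16 macrophage and monocyte markers summed to 85.0 and 378 CPM, with 11 of 12 measured at least 2-fold higher, and 2 of the 16 were at 0 in the control and 1 at day 14. Each measured marker of both lists failed the free RNA rule. Epithelial barcodes numbered 2383 and 395 and immune barcodes 191 and 647 in these libraries. Endothelial barcodes numbered 504 and 1309 and mural barcodes 644 and 1017. Lymphatic endothelial markers summed to 313 and 104 CPM, with 5 of 7 measured at least 2-fold lower and 1 higher, and erythroid markers to 45.4 and 6.81 CPM. Blood endothelial markers summed to 194 and 255 CPM, mural markers to 316 and 406 CPM and glial markers to 193 and 229 CPM. The T and NK markers summed to 0.673 and 0.956 CPM, with 8 and 7 of 11 at 0. Immediate-early genes, which also respond to tissue digestion, summed to 65059 and 61461 CPM, and 7 of 31 measured were at least 2-fold higher. The part of any of these in the values above was not tested.

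The 12 genes with the highest ratios, ranked by the interval bound nearest to 1, included p53, complement and lipid genes. Pla2g2a, a secreted phospholipase, was at 15.9 CPM in control and 356 CPM in day 14 members, a log2 ratio of 4.48 (4.31 to 4.66), and its thinned share was 1.54% and 15.2%. Abcb1a, a drug efflux pump, was at 2.80 and 54.4 CPM, a log2 ratio of 4.28 (3.85 to 4.73), with thinned shares of 0.307% and 7.75%. Kcnk2, a potassium leak channel, was at 0.336 and 11.8 CPM, with 5.14 (3.96 to 6.62). They were detected in 294, 244 and 74 day 14 members in that order, and for Pla2g2a the 10% of members with the most held 85.2% of the day 14 UMIs. Cpm, the gene for carboxypeptidase M, was at 2.64 and 28.3 CPM, and Ptprv, a receptor tyrosine phosphatase, at 0.561 and 7.89 CPM. Gm25541 was at 6.62 and 60.5 CPM, below the 99.8 CPM of immune barcodes at day 14. With C4b, Grem1 and Aen, described above, these genes had log2 ratios of 2.74 or more on the Postn Dkk2 side too, where Ptprv had 0 UMIs in the control. The exception was Pla2g2a, at 2.47 there, for which members had the larger ratio by 2.01 (1.82 to 2.21). Its level was nevertheless higher on the Postn Dkk2 side in both libraries, at 113 and 628 CPM. The level of C4b was higher there too, at 2.96 and 54.0 CPM.

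The other 3 of the 12 rested on few cells. Trh, encoding thyrotropin-releasing hormone, had 0 UMIs in control and 466 in day 14 members, at least 331-fold higher against a floor of 3 UMIs in the control. However, 424 of them (91.0%) lay in 1 of 7 cells, and the log2 value without that cell was 4.90. Il1f10, an interleukin-1 family cytokine, was at 0.224 and 6.33 CPM, and 39.6% of its 53 day 14 UMIs were in 1 of 14 cells. On the Postn Dkk2 side it was at 12.9 and 51.1 CPM. Apod, encoding the lipocalin apolipoprotein D, had 100 UMIs in control and 3168 in day 14 members, a log2 ratio of 6.08 (5.79 to 6.38). Of these UMIs, 3119 lay in 27 day 14 cells with at least 5 each (2.82% of members), and 81 lay in 3 control cells. The value for Apod thus describes a small set of cells, not the members as a whole.

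These 27 cells had a profile of their own, described after their values were seen. Thbs4 led in 19 of them and Cilp in 3. Myoc, encoding myocilin, was at 1650 CPM in them against 38.7 CPM in the other day 14 members. Tgfbi, a TGF-beta-induced matrix protein, was at 732 against 35.5 CPM, and Ngfr, the low-affinity nerve growth factor receptor, at 139 against 5.26 CPM. Cldn1, a tight junction gene, was at 191 against 10.6 CPM, and Itgb4, an integrin of hemidesmosomes, at 237 against 11.6 CPM. They had little Aspn, at 67.0 against 680 CPM, and Cilp, at 56.7 against 585 CPM, and 0 UMIs of Pla2g2a and Grem1. Thbs4 was thus the main marker by which they met the rule. No Trh UMI lay in them.

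Among the 12 genes with the lowest ratios were regulators and membrane proteins. Itm2a, a membrane protein of developing mesenchyme, was at 413 CPM in control and 146 CPM in day 14 members, a log2 ratio of -1.50 (-1.59 to -1.41), and its thinned share was 39.8% and 17.3%. Lpar4, a lysophosphatidic acid receptor, was at 72.3 and 21.1 CPM, with -1.77 (-2.01 to -1.55). Dlk1, a Delta-like protein of preadipocytes and a gene higher in members than on the Postn Dkk2 side, was at 24.1 and 7.53 CPM, with -1.68 (-2.08 to -1.30). Clic2, of the chloride intracellular channel family, was at 470 and 194 CPM and Ptx3, a soluble pattern recognition protein, at 100 and 37.8 CPM. The thinned shares of Itm2a in epithelial barcodes were 1.45% and 1.79%. Egln3, an oxygen-sensing prolyl hydroxylase, was at 29.6 and 11 CPM, Zfhx4 at 15.2 and 4.78 CPM, Esrrg, an orphan nuclear receptor, at 9.08 and 2.51 CPM, N5 at 9.14 and 1.91 CPM and Spaca6 at 5.61 and 1.43 CPM. All 12 were also lower on the Postn Dkk2 side. Myl3 and Mb, which encode muscle proteins, were at 6.34 and 0.717 CPM and at 5.22 and 0.478 CPM. They were detected in 56 and 52 control members, of which the top cell held 31.0% and 31.2% of the UMIs. Without the top cells their log2 ratios were -3.19 and -3.32. Muscle markers as a list summed to 279 and 187 CPM in members, 5 of 8 measured were at least 2-fold lower, and no muscle class was among the classes of the free RNA rule.

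**Figure D5:**
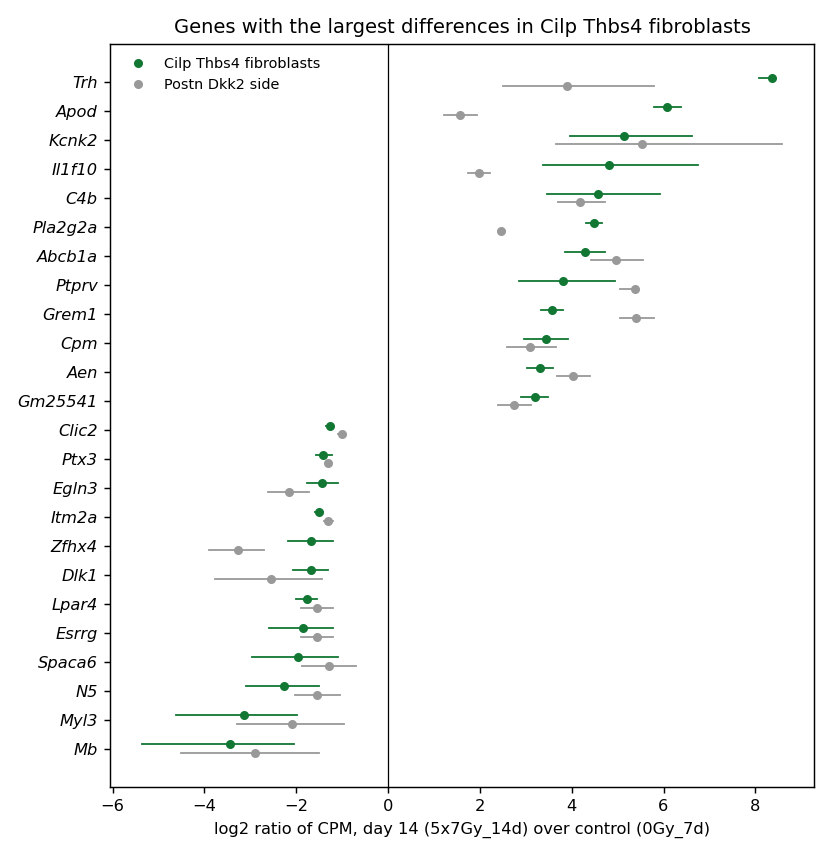
log2 ratio of CPM, day 14 over control, for the 12 genes with the highest and the 12 with the lowest ratios in Cilp Thbs4 fibroblasts, with the values on the Postn Dkk2 side; lines are 95% counting intervals, and the value of Trh, at 0 UMIs in the control, uses a floor of 3 UMIs. Trh and Apod rest on few cells, while Pla2g2a, at 4.48 and 2.47, was detected in 294 day 14 members. The CPM of Pla2g2a was higher on the Postn Dkk2 side in both libraries.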

How the data were processed

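The values used were the UMI counts that the authors deposited, unnormalized, for 32623 features in each library of pooled esophagi. They were made with Cell Ranger 5.0.0, and mRatBN7.2 and rn7 are listed as builds, per the submitters' processing notes. Which annotation release was used is not stated in the labels. Counts of features with the same symbol were summed, and 45 of 831 list symbols matched no feature. Members were found by the stated rule. Their counts were summed per library and scaled to CPM, with Clopper-Pearson intervals for shares and exact conditional binomial intervals for ratios, at 95%. Genes needed at least 50 UMIs. Cells were thinned to 1500 UMIs for shares with a UMI. Scrublet ran in scanpy 1.11.5, at an expected rate of 0.8% per 1000 cells. The ratio code was tested on simulated data. The named genes were the 12 highest and 12 lowest by the interval bound nearest to 1, among those passing the free RNA rule and leaving out mitochondrial, ribosomal protein and haemoglobin genes, features without a symbol and the 8 genes of the last step. The members and gene lists were chosen with earlier results of these data known. Analyses used Python 3.11.15 and SciPy 1.17.1. Promoters came from RefSeq on GRCr8, a different build from the counts, and were matched by symbol. Some items are not reported here.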

Additional observations from a re-analysis of the deposited data

How the results depend on the processing

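The log2 ratio of the members' share of kept barcodes, -1.20, was -1.06 after thinning to 2000 UMIs, -1.48 with the collagen gate at 200, -1.33 with at least 3 marker UMIs and a 2-fold margin, -1.35 without cells holding Cdh5, Kdr or Egfl7, and -1.06 without either Ccn5 or Aspn in the last step. Within the gate, -1.03 became -1.34 at a gate of 200, -1.16 with the margin, -0.89 without Ccn5 and -0.90 without Aspn. Settings naming Cdh5, Ccn5 or Aspn, or leaving out the top cell, were added after seeing the data. The 584 genes higher became 267 after thinning, 947 at a minimum of 20 UMIs and 218 at 200 UMIs, where fewer or more genes are measured. The 277 lower became 141, 470 and 127, and 184 with stricter limits on markers of other cell types. The list medians that changed sign were those of retinoid and steroid genes (0.59 to -0.01 after thinning), G2/M genes (-0.55 to 0.26 at a gate of 200) and proteoglycans (-0.32 to 0.01 at 20 UMIs), and the cause was not tested. No named gene changed sign. No paired analysis was possible because each group had 1 library. Depth limits genes under 50 UMIs, and a pool hides the spread between rats.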
